A study of Mus musculus with 6 samples.

Results

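The 7 genes described here encode the DNA-end sensor of non-homologous end joining (Prkdc, Xrcc5 and Xrcc6), the nick and break sensor PARP1 (Parp1), the damage sensors of nucleotide excision repair (Ddb2 and Xpc) and a translesion DNA polymerase (Polk). They were picked by gene symbol and make up 7 of the 11108 genes listed in the deposited table. All 7 are listed, and all 7 had a mean high enough to be tested. RNA-seq was done on hematopoietic stem cells from mouse bone marrow, with 3 libraries labelled Mcph1-/- and 3 labelled WT. Each library was made from 200 cells by Smart-seq2, which amplifies full-length cDNA from small numbers of cells, and the cells were sorted as lineage-negative, Sca-1+, c-kit+, CD34- and CD150+. No treatment is recorded, and the age and sex of the mice, the nature of the Mcph1 allele, the number of mice behind a library and the sharing of mice between libraries are not given in the labels. The spread that p-values below rest on may therefore be technical.

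When both strands of DNA break, the Ku heterodimer of XRCC5 and XRCC6 threads onto the ends and recruits the kinase encoded by Prkdc, and the complex holds the ends until a ligase seals them. PARP1 binds nicks and breaks and builds poly(ADP-ribose) chains that call in repair factors. DDB2 and XPC find bases distorted by ultraviolet light or bulky adducts, and DNA polymerase kappa, the product of Polk, copies past certain damaged bases. Blood stem cells are mostly quiescent, and end joining is the break repair route that does not need a sister chromatid. Microcephalin, the product of Mcph1, acts in chromosome condensation and in the DNA damage response.

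Values are normalised read counts, that is, reads of a gene divided by a library's size factor. The libraries held 8102605 to 10455908 reads on the listed genes, and reads were found for 10516 to 10777 genes in Mcph1-/- libraries and 10209 to 10335 in WT libraries. Mcph1 itself had normalised read counts of 427.8, 37.7 and 233.9 in Mcph1-/- replicates 1 to 3, against 160.5, 341.0 and 34.4 in WT replicates 1 to 3 (log2 fold change 0.33, SE 1.25; limma-trend adjusted p = 0.958). The groups overlapped, and since the deleted part of Mcph1 is not given, reads summed over the gene are no check of genotype, and every direction below rests on the labels. All 10 stem cell markers on a list used to check the labelled cell type were listed, with summed normalised read counts of 9230 to 10257 in Mcph1-/- and 10885 to 13906 in WT libraries. Slamf1, which encodes the sorting marker CD150, was nonetheless at 65.7, 395.4 and 0.893 in Mcph1-/- replicates 1 to 3, and at 0, 223.6 and 497.0 in WT replicates 1 to 3. Marker lists of other cells were summed in the same way. The 7 listed of 10 neutrophil markers summed to 3287 to 18724 in Mcph1-/- and 58564 to 67847 in WT libraries. S100a8, S100a9, Ngp and Camp were below WT in every Mcph1-/- library, but Mpo and Elane varied widely within each genotype. Mpo was at 1.82, 53.3 and 4856 in Mcph1-/- replicates 1 to 3, against 5959, 1.03 and 2.02 in WT replicates 1 to 3. Elane was at 3.65, 0 and 8095 in Mcph1-/- replicates 1 to 3, against 3614, 138 and 1.01 in WT replicates 1 to 3. The 8 listed of 9 erythroid markers summed to 28169 to 35954 in Mcph1-/- and 2818 to 16208 in WT libraries. By limma-trend 6 of the 8 had a log2 fold change above 0 and 2 below, with a median of 2.31. Car1, Klf1 and Gata1 were above WT in every Mcph1-/- library, as were 7.4% of all tested genes. Hba-a1 was below WT in every Mcph1-/- library, as were 6.8%. Car1, for carbonic anhydrase, made up most of the Mcph1-/- sums (30038, 23716 and 31845 in Mcph1-/- replicates 1 to 3, against 1628, 1977 and 4566 in WT replicates 1 to 3). The globin gene Hba-a1, whose reads can be split with a near-identical copy, lay the other way, at 185, 55.0 and 101 in Mcph1-/- replicates 1 to 3, against 581, 251 and 8516 in WT replicates 1 to 3. The 6 megakaryocyte markers summed to 1336 to 2605 in Mcph1-/- and 1902 to 5033 in WT libraries, and the 3 listed of 8 lymphoid markers to 374 to 2472 in Mcph1-/- and 878 to 1829 in WT libraries, with Ebf1 and Cd79a at 0 in Mcph1-/- replicate 1 and in WT replicate 3. Of 6 monocyte markers only Lyz2 was listed, at 4400 to 4628 in Mcph1-/- and 7454 to 12241 in WT libraries. The part of these other cells in any difference below was not tested, and in bulk samples fewer cells of a type and less RNA per cell cannot be told apart.

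Promoter windows of 300 bases, from 250 bases before to 50 bases after an annotated start, were available from RefSeq (GRCm38.p6, the assembly of mm10) for 4 of the 7 genes in 5 windows. Those for Prkdc, Ddb2 and Xpc are not used here. The Xrcc6 start and the downstream Polk start lie inside the GENCODE spans given below. The windows of Parp1 and of the Ku pair are shown because Parp1 alone kept its genotypes apart while the Ku genes did not, and that of the upstream Polk start because it is shared with a divergent neighbour. Capitals mark matches, on either strand, to the GC box GGGCGG, the NRF1 motif GCGCATGC, the CCAAT box or the E2F motif TTTCCCGC, and no marked matches overlap.
Parp1 (chr1:180568641-180568940, plus strand): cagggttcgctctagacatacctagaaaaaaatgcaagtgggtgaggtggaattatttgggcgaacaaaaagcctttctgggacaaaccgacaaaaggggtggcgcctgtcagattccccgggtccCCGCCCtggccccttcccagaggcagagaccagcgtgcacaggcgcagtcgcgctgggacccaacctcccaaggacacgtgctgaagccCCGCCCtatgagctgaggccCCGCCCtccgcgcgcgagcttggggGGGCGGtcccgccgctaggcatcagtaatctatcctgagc
Xrcc6 (chr15:82016119-82016418, plus strand): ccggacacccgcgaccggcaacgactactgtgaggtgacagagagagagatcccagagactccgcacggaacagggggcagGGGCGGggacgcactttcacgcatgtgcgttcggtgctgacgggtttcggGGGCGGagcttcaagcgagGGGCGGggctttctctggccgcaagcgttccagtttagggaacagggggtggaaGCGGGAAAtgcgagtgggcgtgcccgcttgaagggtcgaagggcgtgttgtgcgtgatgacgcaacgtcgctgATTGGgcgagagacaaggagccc
Xrcc5 (chr1:72307171-72307470, plus strand): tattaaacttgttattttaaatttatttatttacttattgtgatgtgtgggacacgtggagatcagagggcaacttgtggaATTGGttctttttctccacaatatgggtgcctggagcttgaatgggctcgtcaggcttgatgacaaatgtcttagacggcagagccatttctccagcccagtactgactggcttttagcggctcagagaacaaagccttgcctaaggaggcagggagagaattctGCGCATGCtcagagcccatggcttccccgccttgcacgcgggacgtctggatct
Polk (chr13:96542530-96542829, minus strand): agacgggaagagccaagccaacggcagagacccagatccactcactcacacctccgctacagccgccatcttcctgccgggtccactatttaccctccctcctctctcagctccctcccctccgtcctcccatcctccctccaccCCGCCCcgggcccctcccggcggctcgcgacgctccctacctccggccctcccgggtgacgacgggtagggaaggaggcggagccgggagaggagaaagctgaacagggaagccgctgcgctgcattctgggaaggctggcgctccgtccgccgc

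The Parp1 window held 4 GC boxes, at 124, 35 and 15 bases before the start and 10 bases after it, and none of the other motifs searched. The Xrcc6 window held 3 GC boxes, 1 E2F match 46 bases before the start and 1 CCAAT box. Its partner Xrcc5 had no GC box, and held an NRF1 match 4 bases before the start and 1 CCAAT box. GC content was 62.0% for Parp1, 64.3% for Xrcc6 and 68.7% for the upstream Polk start, against 48.0% for Xrcc5 and 44.3% for the downstream Polk start, with a median of 52.7% over 32851 windows of the same length. Of those windows, 35.7% held a GC box, 37.4% a CCAAT box, 2.71% the NRF1 motif and 1.07% the E2F motif. The ETS motif CCGGAAG (8.86% of windows), the E2F variant TTTGGCGC (0.514%) and the CHR element TTTGAA (17.9%) had no match in the 5 windows. The p53 consensus decamer (8.36%) matched only the downstream Polk start. These matches describe letters in a window and not sites at which a factor was measured. A link between them and any difference between the genotypes was not tested.

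**Figure D1:**
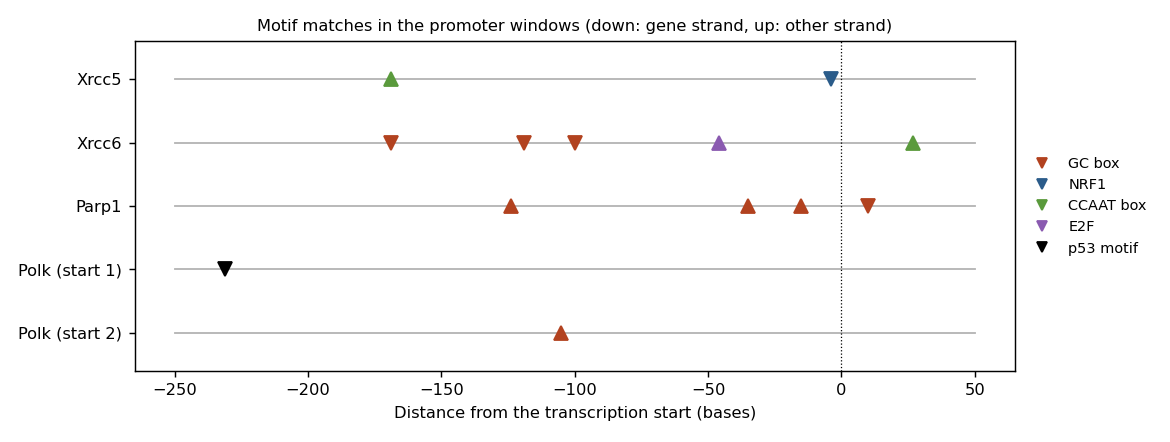
Motif matches in the 5 promoter windows, plotted by distance in bases from the annotated start (x axis), 1 line per window; downward triangles are matches on the gene's strand and upward ones on the other strand, except that the p53 motif reads alike on both. Polk start 1 is the downstream and start 2 the upstream one. Parp1 and Xrcc6 carry 4 and 3 GC boxes, and Xrcc5 none.

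The first question was which of the 7 genes differed between the genotypes. Parp1 was the gene whose Mcph1-/- libraries all lay above all WT libraries, and for the other 6 the groups overlapped. None of the 7 passed the threshold of 0.05 after Benjamini-Hochberg adjustment over 10846 tested genes (limma-trend). Of all tested genes, 0.0369% passed, 0.00922% higher and 0.0277% lower in Mcph1-/-, so the threshold was reached by very few genes of any kind. The 4 were the erythroid marker Car1, which was higher, and the neutrophil markers S100a8, S100a9 and Ngp, which were lower. At an unadjusted p under 0.05, 1 of 7 members (Parp1) was higher and 0 lower, where 4.16% of all tested genes were higher and 3.55% lower. None of the 7 passed by edgeR (0.0184% of all tested genes passed, all lower) or limma-voom (0.00922%, all higher). By DESeq2 1 of the 7, Parp1, passed (2.16% of all tested genes, of which 0.977% higher and 1.18% lower). DESeq2 gave an adjusted p to only 4 of the members, and genes without one count as not passed in these shares. Of all tested genes 7.4% had all Mcph1-/- libraries above all WT libraries, and 6.8% had them below. The count of 1 in 7 members above and 0 in 7 below is to be read against these shares. By the fitted log2 fold change (Mcph1-/- over WT) 6 members were above 0 and 1 below, with a median of 0.85, where 53.8% of all tested genes were above 0 and their median was 0.08. The 6 include Xrcc5, at 0.00028, and without WT replicate 2 the members above 0 were 4 and those below 3. The members' median was 1.57 without Mcph1-/- replicate 3 and 0.20 without Mcph1-/- replicate 2.

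**Figure D2:**
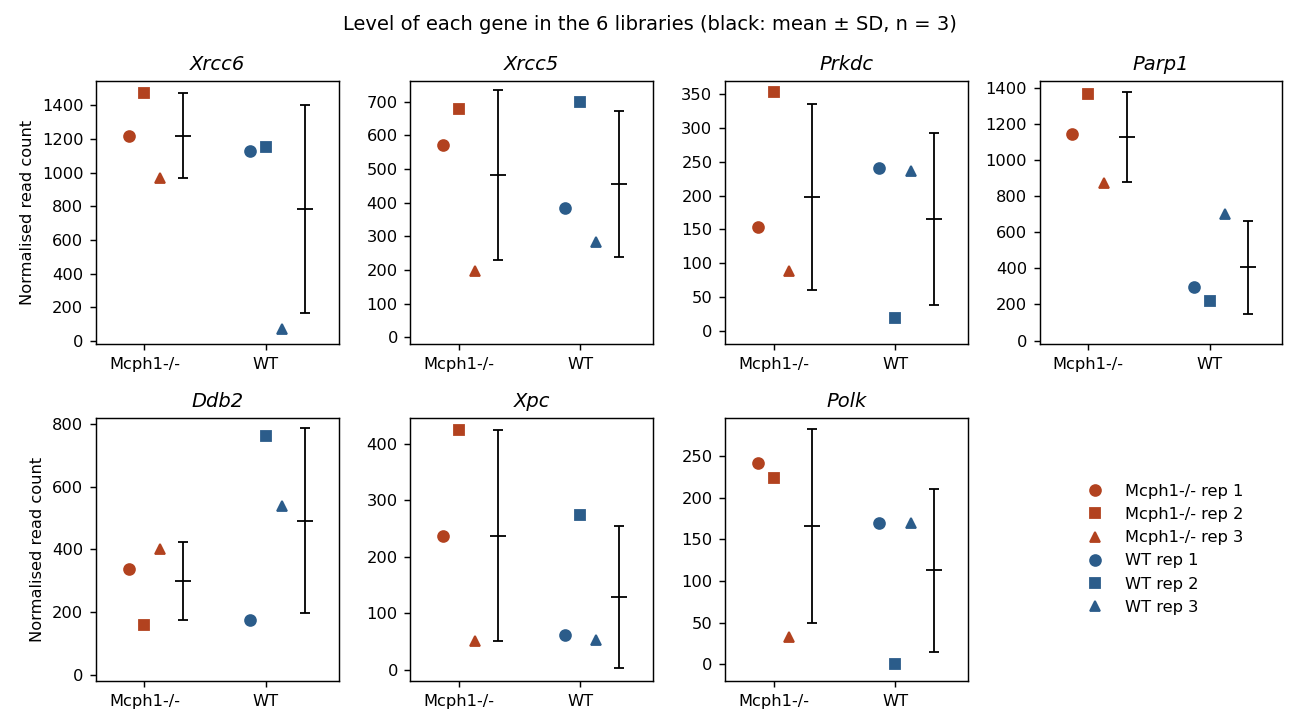
Normalised read count (y axis, a separate scale in each panel) of each of the 7 genes in the 3 Mcph1-/- libraries (left, red) and the 3 WT libraries (right, blue), with the mean and SD in black and the replicate number given by the symbol. Only for Parp1 do the Mcph1-/- libraries, at 871 to 1367, all lie above the WT libraries, at 219 to 700.5; Xrcc6, Prkdc and Polk each have a single very low WT library.

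Parp1 (ENSMUSG00000026496) spans chr1:180568924-180601254 (plus strand, mm10). Its normalised read count was 1145, 1367 and 871 in Mcph1-/- replicates 1 to 3, against 298, 219 and 700.5 in WT replicates 1 to 3. Every Mcph1-/- library was above every WT library, and WT replicate 3 came closest. The group means were 1128 ± 248 in Mcph1-/- and 406 ± 258 in WT (SD, n = 3 each), a ratio of 2.78. The log2 fold change was 1.63 (SE 0.48, 95% interval 0.53 to 2.73; limma-trend adjusted p = 0.592). The interval corresponds to a fold of 1.45 to 6.62. The two-sided exact permutation p was 0.1, the smallest that 3 against 3 libraries allow. Fitted with DESeq2 on the recovered reads, the log2 fold change was 1.47 and passed narrowly (adjusted p = 0.048). Over the 15 alternatives the adjusted p ran from 0.048 to 0.859 and the log2 fold change from 1.28 to 2.11. In the same libraries the 20 proliferation markers summed to 18472 to 20724 in Mcph1-/- and 8975 to 9360 in WT libraries. Of these, 10 of 20 were wholly above WT and 0 of 20 past the threshold, against 7.4% and 0.0369% of all tested genes. The neutrophil and erythroid lists differed as given above. The part of each in the Parp1 difference was not tested.

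Parp2, the sister enzyme that also makes poly(ADP-ribose) at breaks, lay the other way. Its normalised read count was 2205, 1796 and 1923 in Mcph1-/- replicates 1 to 3, against 3285, 3035 and 2685 in WT replicates 1 to 3. The groups did not overlap, yet the gene did not pass (log2 fold change -0.60, SE 0.19; limma-trend adjusted p = 0.617). The ratio of Parp1 to Parp2 reads was 0.519, 0.761 and 0.453 in Mcph1-/- replicates 1 to 3, against 0.0908, 0.0723 and 0.261 in WT replicates 1 to 3. Every Mcph1-/- ratio was above every WT ratio, with a mean of 0.578 ± 0.162 in Mcph1-/- and 0.141 ± 0.104 in WT (SD, n = 3 each; two-sided exact permutation p = 0.1, the smallest possible). This ratio was taken up after the values of both genes were seen. With Parp1 above WT and Parp2 below WT in every Mcph1-/- library, the ratios could not overlap. Their separation and p-value are therefore no further result about Parp1. Per kilobase of exon, Parp2 was the more abundant of the 2 in every library, with Parp1 at 0.311 to 0.522 of the Parp2 level in Mcph1-/- and 0.0496 to 0.179 in WT libraries.

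The Ku subunits depend on each other for stability, and their transcripts were compared with each other as well as between genotypes. Xrcc6 (ENSMUSG00000022471, Ku70) spans chr15:81987835-82040085 (plus strand). Xrcc6 was at 1216, 1474 and 969 normalised reads in Mcph1-/- replicates 1 to 3, against 1126, 1155 and 69.8 in WT replicates 1 to 3. A single library, WT replicate 3, stood apart, and the other 5 lay within the range of 969 to 1474. The log2 fold change was 1.41 (SE 0.98, 95% interval -0.84 to 3.67; limma-trend adjusted p = 0.713), and without WT replicate 3 it was 0.08. The ratio of the means, 1220 ± 253 in Mcph1-/- and 783 ± 618 in WT (SD, n = 3 each), was 1.56, below the fitted fold of 2.66.

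Xrcc5 (ENSMUSG00000026187, Ku80) spans chr1:72307421-72394952 (plus strand). Its normalised read count was 572, 677 and 197 in Mcph1-/- replicates 1 to 3, against 384, 699.5 and 284 in WT replicates 1 to 3. The groups covered nearly the same range, and the lowest library was Mcph1-/- replicate 3. The means were 482 ± 252 in Mcph1-/- and 456 ± 217 in WT (SD, n = 3 each), and the log2 fold change was 0.00028 (SE 0.60; limma-trend adjusted p = 0.9998). The 95% interval of -1.38 to 1.38 leaves room for a fold of 0.384 to 2.61. Per kilobase of exon, the ratio of Xrcc6 to Xrcc5 was 1.21, 1.24 and 2.80 in Mcph1-/- replicates 1 to 3, against 1.67, 0.942 and 0.140 in WT replicates 1 to 3. The pair was thus near parity or in favour of Xrcc6 in 5 libraries and strongly in favour of Xrcc5 in WT replicate 3, and the genotypes overlapped (two-sided exact permutation p = 0.4).

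Prkdc (ENSMUSG00000022672), the catalytic subunit of DNA-dependent protein kinase, spans chr16:15637866-15842235 (plus strand) and has the longest exon sequence of the 7 genes, 13187 bases. Prkdc was at 154, 353 and 88.4 normalised reads in Mcph1-/- replicates 1 to 3, against 241, 18.5 and 237 in WT replicates 1 to 3. WT replicate 2 was the lowest of all 6 and Mcph1-/- replicate 2 the highest. The log2 fold change was 0.71 (SE 1.22, 95% interval -2.10 to 3.52; limma-trend adjusted p = 0.886), and its sign turned without WT replicate 2, at -0.50. The means were 198 ± 138 in Mcph1-/- and 165 ± 127 in WT (SD, n = 3 each).

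Ddb2 (ENSMUSG00000002109), the lesion-binding subunit of the ultraviolet damage sensor and a known p53 target in human cells, was the single member with a fitted change below 0. The gene spans chr2:91211572-91236982 (minus strand). Ddb2 was at 338, 159.96 and 402 normalised reads in Mcph1-/- replicates 1 to 3, against 175, 762 and 539.5 in WT replicates 1 to 3. WT replicates 2 and 3 were above all other libraries, while WT replicate 1 sat among the Mcph1-/- libraries. The means were 299.8 ± 125 in Mcph1-/- and 492 ± 297 in WT (SD, n = 3 each), with a log2 fold change of -0.57 (SE 0.68, 95% interval -2.14 to 0.99; limma-trend adjusted p = 0.825). Without WT replicate 2 the log2 fold change was -0.14, and without WT replicate 1 it was -1.20.

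Xpc (ENSMUSG00000030094), the sensor of helix distortion that opens global genome repair, spans chr6:91489305-91515888 (minus strand). Xpc was at 237, 425 and 49.998 normalised reads in Mcph1-/- replicates 1 to 3, against 60.7, 273 and 51.6 in WT replicates 1 to 3. Each genotype held very low libraries as well as libraries at 237 or above. The log2 fold change was 0.85 (SE 1.16, 95% interval -1.81 to 3.50; limma-trend adjusted p = 0.854), with means of 237 ± 187 in Mcph1-/- and 128 ± 125 in WT (SD, n = 3 each). It was 1.73 without Mcph1-/- replicate 3 and 0.20 without Mcph1-/- replicate 2.

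Polk (ENSMUSG00000021668) spans chr13:96480690-96542579 (minus strand, mm10). Polk was at 242, 223 and 32.1 normalised reads in Mcph1-/- replicates 1 to 3, against 169, 0 and 169 in WT replicates 1 to 3. No read was found in WT replicate 2, where 3 reads would have given 3.09, so a level up to there was not detectable at this depth. The fitted log2 fold change of 1.99 (SE 2.17, 95% interval -3.00 to 6.97; limma-trend adjusted p = 0.806) rests on that 0. It was -0.48 without WT replicate 2, and the log2 ratio of the means, 166 ± 116 in Mcph1-/- and 113 ± 97.6 in WT (SD, n = 3 each), was 0.56.

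**Figure D3:**
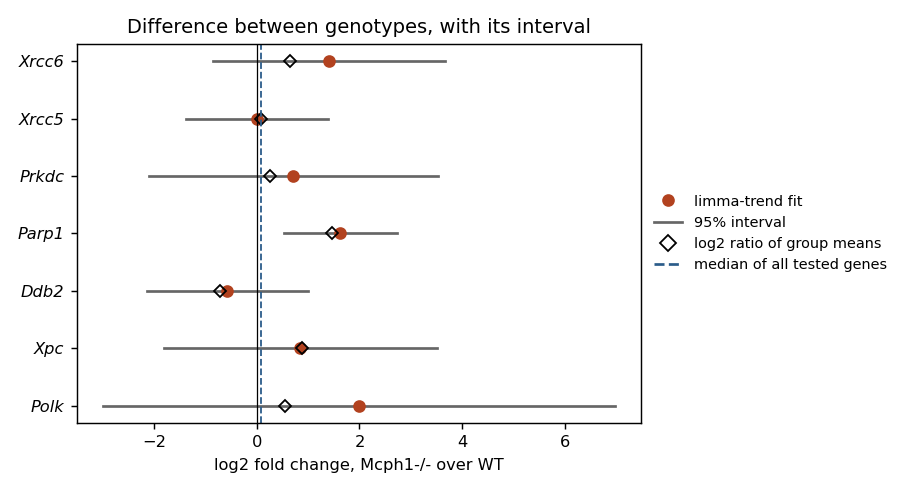
Log2 fold change (x axis, Mcph1-/- over WT) of each of the 7 genes by limma-trend (red points) with its 95% interval (grey lines), beside the log2 ratio of the group means (open diamonds) and the median of all tested genes (dashed line, 0.08). The Parp1 interval, 0.53 to 2.73, lies above 0, the other 6 include 0, and the point and diamond part most for Polk and Xrcc6.

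The spread between libraries of a genotype was wide for most of these genes. The pooled SD of log2 values within a genotype was 0.65 for Parp1, 0.82 for Xrcc5, 0.93 for Ddb2, 1.45 for Xpc, 1.64 for Prkdc, 1.65 for Xrcc6 and 3.24 for Polk. The median over all tested genes was 0.88, and 5 of the 7 members were above it. Among the 4842 genes with a mean of 100 to under 500, the range that holds Prkdc, Xrcc5, Ddb2, Xpc and Polk, the median SD was 1.17. Among the 1701 genes with a mean of 500 to under 1000, the range that holds Parp1, it was 0.57, below the 0.65 of Parp1. Members' read numbers ran from 0 to 1797 in a library. Of the Mcph1-/- libraries, replicate 3 was the lowest for 6 of the 7 genes, all but Ddb2, where it was the lowest for 32% of all tested genes. Mcph1-/- replicate 2 was the highest for 5 of the 7, against 33.5% of all tested genes. Among WT libraries replicates 2 and 3 were each the lowest for 3 members, Parp1, Prkdc and Polk in replicate 2 and Xrcc5, Xrcc6 and Xpc in replicate 3. These counts are to be read against 31.4% of all tested genes for WT replicate 2 and 34.2% for WT replicate 3. The summed normalised read count of the 7 genes was 3903, 4679 and 2610 in Mcph1-/- replicates 1 to 3, against 2453, 3128 and 2052 in WT replicates 1 to 3, so the sums overlapped.

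Levels can be compared between genes only per length, here as normalised read count per kilobase of all annotated exons of a gene. In Mcph1-/- libraries the order of mean levels per kilobase was Xrcc6 (272 ± 56.5), Parp1 (213 ± 46.9), Xrcc5 (189 ± 98.7), Ddb2 (109.6 ± 45.8), Xpc (43.2 ± 34.1), Polk (29.8 ± 20.9) and Prkdc (15.0 ± 10.4; SD, n = 3 each). The steps from Xrcc6 to Parp1 and from Ddb2 to Xpc exceeded the larger SD of the neighbours, and the other 4 did not. In WT libraries the order was Ddb2 (179.9 ± 108), Xrcc5 (178 ± 84.8), Xrcc6 (175 ± 138), Parp1 (76.7 ± 48.7), Xpc (23.4 ± 22.8), Polk (20.3 ± 17.6) and Prkdc (12.5 ± 9.64; SD, n = 3 each), and only the step from Parp1 to Xpc exceeded the larger SD. Transcripts of the Ku pair, Parp1 and Ddb2 were thus more abundant per length than those of Xpc, Polk and Prkdc in the group means of each genotype. Prkdc was below Xrcc5 in every library, with a Prkdc to Xrcc5 ratio per kilobase of 0.0522 to 0.101 in Mcph1-/- and 0.00514 to 0.161 in WT libraries. It was also below Xrcc6 in every library but WT replicate 3, where Prkdc was at 17.96 and Xrcc6 at 15.6 per kilobase. Exon lengths pool all annotated isoforms, which understates the level of genes with long minor isoforms, and the file does not say how evenly reads covered a transcript.

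**Figure D4:**
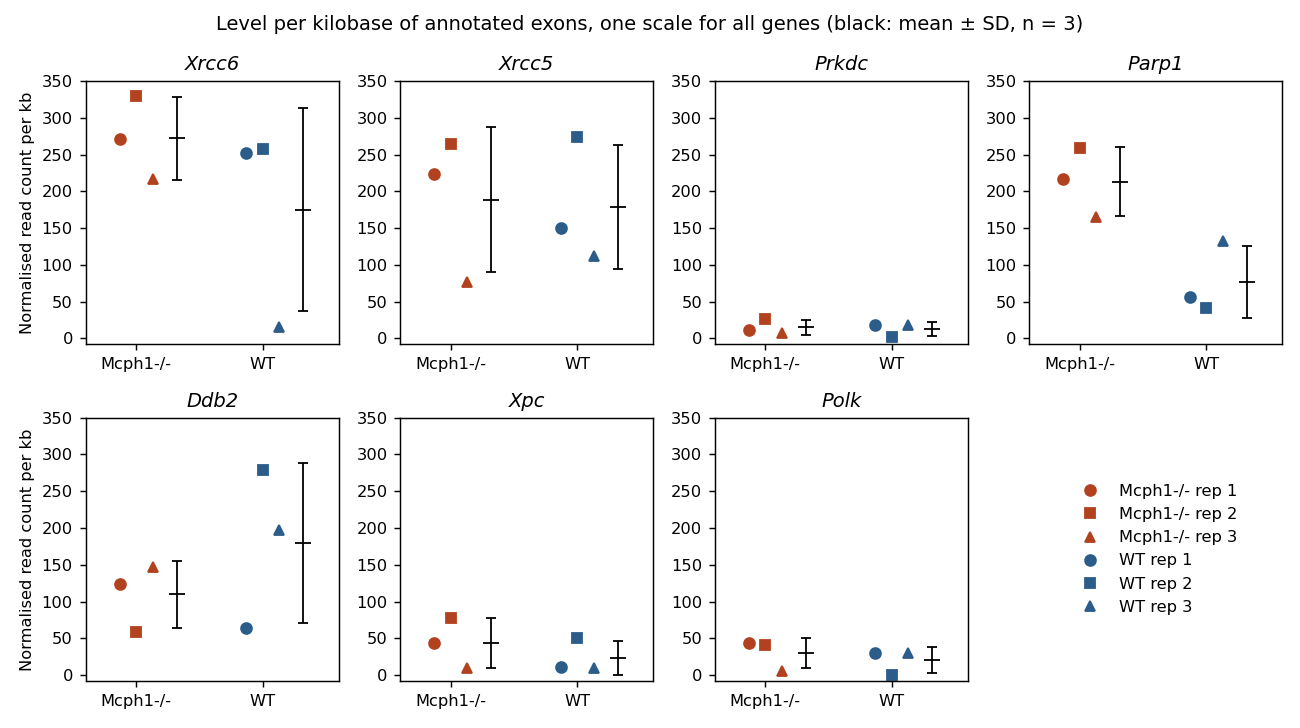
Normalised read count per kilobase of annotated exons (y axis, 1 scale for all panels) in the Mcph1-/- libraries (left, red) and the WT libraries (right, blue), with mean and SD in black. Mcph1-/- means of Xrcc6, Parp1, Xrcc5 and Ddb2 lie at 109.6 to 272 per kilobase, and those of Xpc, Polk and Prkdc at 15.0 to 43.2.

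Position in the genome was also compared. Of the 7 genes, 3 (Prkdc, Xpc and Polk) have a protein-coding neighbour on the other strand whose annotated start lies within 2000 bases of their own, as 20.3% of the 9421 listed protein-coding genes do. Prkdc faces Mcm4, a subunit of the replicative helicase, 466 bases away. Xpc faces Lsm3, an RNA-binding protein of the spliceosome, 40 bases away, and Polk faces Cert1, a ceramide transfer protein, 39 bases away. Mcm4 had normalised read counts of 0.912, 304 and 606 in Mcph1-/- replicates 1 to 3, against 329.7, 159.7 and 341 in WT replicates 1 to 3. It was nearly absent in Mcph1-/- replicate 1, where Prkdc was at 154. Lsm3 had 643, 582 and 609 in Mcph1-/- replicates 1 to 3, against 678, 706 and 675 in WT replicates 1 to 3. Lsm3 thus varied little among libraries in which Xpc, on the other side of the same interval, spanned 49.998 to 425, and its Mcph1-/- levels, all below WT, did not pass (log2 fold change -0.17, SE 0.30; limma-trend adjusted p = 0.889). Cert1 had 308, 78.7 and 442 in Mcph1-/- replicates 1 to 3, against 406, 271 and 172 in WT replicates 1 to 3. Cert1 and Polk did not follow each other across libraries: in WT replicate 2, where Polk had no read, Cert1 was at 271. On exon sequence, Xrcc6 overlaps Desi1, Ddb2 overlaps Acp2 and Parp1 overlaps the microRNA gene Mir6904 by 344, 652 and 7 bases. As no strand setting is given, reads of such overlapping genes cannot be told apart there.

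The remaining genes of these repair routes were then read from lists, each described by counts and a median beside the 0.08 of all tested genes, and none of their genes passed the threshold in either direction. Of 14 other end joining factors 8 were tested, 3 above 0 and 5 below, and the median log2 fold change was -0.94. Lig4, Poll, Polm, Dntt, Shld3 and Aplf are not analysed here. Nhej1, which encodes the ligase cofactor XLF, was at 66.6, 68.1 and 165 in Mcph1-/- replicates 1 to 3, against 280, 197 and 366 in WT replicates 1 to 3. Paxx, a Ku-binding scaffold, was at 833, 723 and 68.7 in Mcph1-/- replicates 1 to 3, against 869, 1525 and 1093 in WT replicates 1 to 3. All Mcph1-/- libraries of these 2 genes lay below all WT libraries, as for 6.8% of all tested genes. Their log2 fold changes were -1.57 (SE 0.79) and -1.70 (SE 0.88; limma-trend adjusted p = 0.662 for each). The change of Rif1, which protects broken ends from resection, was 1.25 (SE 0.64), and that of Shld1 of the shieldin complex was -3.49 (SE 2.04), with 0 reads in Mcph1-/- replicate 1. Leaving out Mcph1-/- replicate 3 brought the list's median to -0.43.

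Alternative end joining, PARP and single-strand break repair genes were all tested, 15 of 15, with 9 above 0, 6 below and a median log2 fold change of 0.14. Besides Parp2, the smallest p-values belonged to Parp3, another DNA-dependent ADP-ribosyltransferase (log2 fold change 3.73, SE 2.07, with 0 reads in WT replicate 3), Aptx, which removes AMP from stalled ligation ends (-0.79, SE 0.48), and Tdp2, which frees ends from trapped topoisomerase (0.60, SE 0.38). Leaving out Mcph1-/- replicate 2 brought the list's median to 0.55. Of 25 other nucleotide excision repair genes 24 were tested, 16 above 0 and 8 below, with a median of 0.33, and Ercc2 is not analysed here. Xab2, an XPA-binding protein that also acts in splicing, was at 462, 675 and 756 in Mcph1-/- replicates 1 to 3, against 1103, 1753 and 1351 in WT replicates 1 to 3. Cdk7, the kinase of the TFIIH complex, was at 2269, 1284 and 1538 in Mcph1-/- replicates 1 to 3, against 1132, 1281 and 966 in WT replicates 1 to 3. The groups of both were apart, in opposite directions, with log2 fold changes of -1.16 (SE 0.32; limma-trend adjusted p = 0.555) for Xab2 and 0.56 (SE 0.28; limma-trend adjusted p = 0.662) for Cdk7. For Gtf2h2, another TFIIH subunit, it was 1.53 (SE 0.78), and for Cul4a, the scaffold of the ligase that DDB2 directs to lesions, 1.02 (SE 0.54). Exon sequence is shared between Xab2 and Camsap3 (570 bases) and between Parp3 and Rrp9 (20 bases), and for Shld1 with an antisense gene (48 bases), so these counts are uncertain.

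Of 13 base excision repair genes 8 were tested, 5 above 0 and 3 below, with a median log2 fold change of 2.17 that did not hold across fits: it was -0.07 by edgeR, -0.10 by DESeq2 and -0.07 without WT replicate 1. The genes with the smallest p-values were the glycosylases Tdg (2.33, SE 1.70), Neil1 (-2.65, SE 1.97), Mbd4 (2.75, SE 2.14) and Ung (2.28, SE 2.10; limma-trend adjusted p of 0.726 to 0.770 for the 4). Of these, Neil1, Mbd4 and Ung had 0 reads in 1 library each. Exon sequence shared with other genes, 367 bases for Tdg and 264 for Mbd4, makes these counts uncertain. Apex2, Mutyh, Neil2, Neil3 and Smug1 are not analysed here. Of 13 other translesion synthesis genes 11 were tested, 9 above 0 and 2 below, with a median of 0.64 that was 0.08 by edgeR and 0.05 by DESeq2, and Polh and Zranb3 are not analysed here. Rad18, the ubiquitin ligase that marks the sliding clamp for translesion polymerases, was at 610, 656 and 374 in Mcph1-/- replicates 1 to 3, against 305, 207 and 326 in WT replicates 1 to 3, with groups apart (log2 fold change 0.95, SE 0.46; limma-trend adjusted p = 0.662). The log2 fold change of Usp1, which removes that mark, was 1.20 (SE 0.67), that of Rev1, a scaffold of these polymerases, -1.09 (SE 0.77), and that of Primpol, a repriming enzyme, 2.28 (SE 1.76). Rev1 shares 1643 bases of exon sequence with Eif5b, and Primpol 1111 with Cenpu and an antisense gene, so these counts are uncertain too. The proliferation markers, listed for comparison, had 20 tested genes, 19 above 0 and 1 below, with a median of 1.05. Their most abundant members were Mcm6 (1.04, SE 0.22), Birc5 (1.02, SE 0.38) and Ccnb2 (1.65, SE 0.38).

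**Figure D5:**
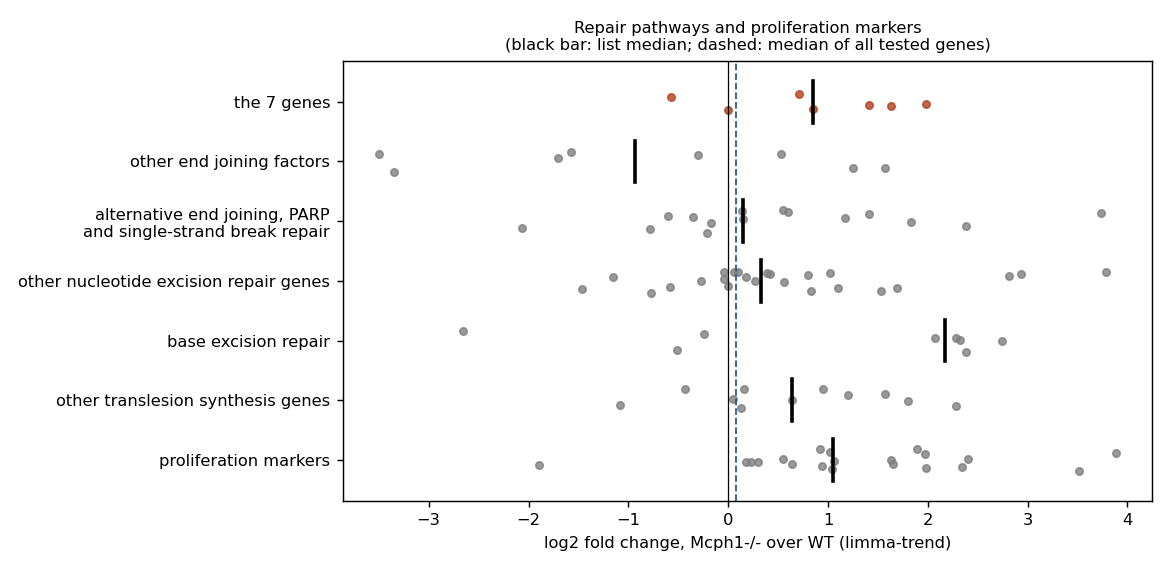
Log2 fold change (x axis, Mcph1-/- over WT, limma-trend) of each tested gene of the 7 members (red), the 5 repair lists and the proliferation markers (grey), with the list median as a black bar and the median of all tested genes, 0.08, as a dashed line. Points of every repair list lie on both sides of 0, while 19 of 20 proliferation markers lie above it.

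The genes whose pattern was most like the mean of the 7 members were found by the root mean square difference of centred log2 values over the 6 libraries. The nearest 5 were the zinc finger gene Zmym5 (0.20), the glycogen phosphorylase gene Pygl (0.20), Rad18 (0.21), the nucleotidase-like gene Nt5dc1 (0.22) and Top2b, a topoisomerase that makes transient double-strand breaks (0.22). The members themselves lay farther from their own mean, from 0.63 for Parp1 to 2.35 for Polk. As the 5 were picked for their nearness from all tested and named protein-coding genes, their being nearer than the members is no result about the members.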

How the data were processed

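Per the labels' protocols, reads were paired and 150 bases long. Build mm10 and the tools HISAT2, featureCounts, Trim Galore 0.6.6 and DESeq2 are listed in the submitters' processing notes, without role or order, while an annotation release and a strand setting are not. The signal the authors deposited is a gene read count divided by 1 size factor per library: every value was a whole multiple of the value of 1 read, within 0.001 reads (100% of values), so reads were recovered. Genes read in fewer than 4 of 6 libraries are not in the table. Genes without a symbol (444) stayed in the tests.

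The main test was limma-trend (limma 3.58.1, R 4.3.3) on log2(value + 1) with a genotype term alone, for the 10846 genes with a mean of at least 10, adjusted by Benjamini-Hochberg over all of them, threshold 0.05. The added 1 shrinks fold changes of genes that are low in every library, but it can leave a large one where a single library is at 0. The log2 fold change of Polk was 1.99 with 1 added, 2.31 with 0.5, 0.81 with 16 and 0.59 by edgeR. Single values were also tested by two-sided exact permutation. Alternatives were pseudocounts of 0.5 and 16, no filter or a mean of at least 50, quantile normalisation, a replicate term, each library left out, and edgeR 4.0.16, DESeq2 1.42.0 and limma-voom on recovered reads. Floors of 3 reads cover only counting error, and without molecular identifiers a read is not an independent molecule. Replicate libraries all differed by more than sampling noise (chi-square per degree of freedom at least 82.9).

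The members, gene lists and tests were chosen with earlier results of these data known. The genes named are the 7 members, Mcph1, of each repair list the 4 with the smallest p, of the proliferation markers the 3 with the highest mean, and the 5 most like the members' mean. The 4 genes called and Slamf1, Ebf1, Cd79a, Lyz2, Camp, Mpo, Elane, Klf1, Gata1 and Hba-a1 were named after their values were seen. Mcm4, Lsm3 and Cert1 were named for their position. Further markers that the rule allows are given by sums. Positions are from GENCODE vM21 (mm10), matched by gene identifier for 96.2% of genes.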

Additional observations from a re-analysis of the deposited data

How the results depend on the processing

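None of the 7 genes passed the threshold in any of the 15 alternatives, except Parp1 by DESeq2 (adjusted p = 0.048; 0.803 by edgeR). Parp1, Xrcc6 and Xpc stayed above 0 and Ddb2 below 0 in all 15. The sign turned without WT replicate 2 for Prkdc (-0.50) and Polk (-0.48, in a range of -0.48 to 3.22 with a library left out), and for Xrcc5, whose log2 fold change is near 0, without Mcph1-/- replicate 1 (-0.21), Mcph1-/- replicate 2 (-0.34), WT replicate 1 (-0.07) or WT replicate 3 (-0.29). DESeq2 gave no adjusted p for Prkdc, Xpc and Polk. The number of genes called was 4 by limma-trend, 2 by edgeR, 1 by limma-voom and 234 by DESeq2 (106 higher, 128 lower, against 1 higher and 3 lower by limma-trend), and 1 to 4 with a library left out. With a library left out, list medians ran from 0.20 to 1.57 for the 7 genes and -1.17 to -0.43 for other end joining factors. They ran from 0.15 to 0.55 for alternative end joining, PARP and single-strand break repair and 0.22 to 0.38 for other nucleotide excision repair genes. For base excision repair they ran from -0.073 to 2.07, for other translesion synthesis genes from 0.21 to 0.75 and for proliferation markers from 1.05 to 1.32. The base excision repair median was 0.93 with a pseudocount of 16, -0.068 by edgeR and -0.10 by DESeq2, and the translesion median 0.33, 0.079 and 0.047 in the same 3 fits. The cause of these shifts was not tested. The median of all tested genes was 0.08 by limma-trend, and from -0.03 by DESeq2 to 0.11 by limma-voom under the other scalings. Same-numbered libraries did not visibly deviate together over all tested genes (correlations of -0.01, 0.02 and -0.03). With so wide a spread between libraries a small shared effect could be missed, so pairing by number was neither shown nor excluded. With the replicate block, 3 genes were called and no call on the 7 genes changed. At 3 libraries of 200 cells a genotype, the intervals of the members other than Parp1 include both directions.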
